A study of Mus musculus with 60 samples.

Results

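Long intergenic noncoding RNAs (lincRNAs) are transcripts from between protein-coding genes that are often capped and spliced like messenger RNA but are not known to encode a protein. The well-expressed lincRNAs of the mouse dentate gyrus (DG) were selected on their counts: autosomal genes typed as lincRNA in Gencode vM21 with more than 50 counts in every one of the 20 RNA-Seq samples, leaving out the imprinted transcripts Meg3, Rian and Mirg. The limit kept 99 of 2659 autosomal lincRNA genes, among 46480 genes in the count tables. The counts that chose the members set their level in all samples at once and used no comparison between groups.

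The samples were whole-tissue punches of the dorsal or ventral DG, taken at age 80 days from male C57BL6J mice weaned on postnatal day 22. Mice spent 8 weeks either in standard housing (SH, 3 mice per cage) or in an enriched environment (EE, 12 mice in a larger cage with running wheels and objects replaced each week). Crossing region with housing gave 4 groups of 5 samples, each made from tissue pooled over several animals, and a pool gave both a dorsal and a ventral sample from the same mice. SH replicate 3 was left out of all tests in both regions because of its level of Xist, a transcript of female cells, leaving 9 pools and 18 samples. Depth lay between 22919364 and 28301861 fragments assigned to genes per sample. In bulk tissue, fewer cells of a type and less RNA per cell cannot be told apart.

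Some lincRNAs stay in the nucleus and gather proteins of RNA processing. Malat1 lies in nuclear speckles, compartments rich in splicing factors, Miat (also called Gomafu) forms nuclear foci in neurons and binds splicing factors, and Neat1 is the scaffold of paraspeckles. Others act in the cytoplasm, such as Norad (2900097C17Rik), which binds Pumilio proteins. A further class serves as host transcripts from which microRNAs or small nucleolar RNAs (snoRNAs) are cut.

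The members of that last class that have known neuronal products are shown first, because their levels were compared across all groups. All 3 mouse genes for miR-9, a microRNA of neural progenitors and neurons, lay inside members on the same strand. Mir9-1 sits in an intron of Gm3764 (chr3:88206813-88229959, plus strand, mm10), Mir9-2 in an exon of C130071C03Rik (chr13:83721381-83884194, plus strand) and Mir9-3 in an intron of Mir9-3hg (chr7:79500026-79534403, plus strand). The mature strands below are from RefSeq (GRCm38.p6), with the seed, bases 2 to 8, in capitals.
mmu-miR-9-5p: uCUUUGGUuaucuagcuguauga
mmu-miR-9-3p: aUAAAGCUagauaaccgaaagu
Both mature strands had one sequence at all 3 loci, so a mature miR-9 cannot be traced to its gene by sequence, whereas the 3 hairpins, shown next with the mature strands in capitals, differ in loop and flanks, and the host transcripts were counted separately.
Mir9-1: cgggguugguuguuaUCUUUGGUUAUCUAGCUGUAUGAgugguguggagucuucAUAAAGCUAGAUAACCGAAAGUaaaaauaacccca
Mir9-2: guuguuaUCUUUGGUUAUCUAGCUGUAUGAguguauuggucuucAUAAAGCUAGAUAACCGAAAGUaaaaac
Mir9-3: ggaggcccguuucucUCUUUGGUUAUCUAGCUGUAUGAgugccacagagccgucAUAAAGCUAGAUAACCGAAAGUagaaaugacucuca
The values that follow are counts on the host genes, not on the mature microRNAs.

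The level of the members spanned more than 3 orders of magnitude. Per length, as TPM (the share of all transcripts, scaled to a fixed total), the mean over the 18 samples ran from 0.223 to 539, with a median of 2.05. Only 13 members exceeded 10 TPM, 69 lay between 1 and 10 TPM, and 17 were under 1 TPM. The TPM come from RSEM, whose estimated counts were under 0.67 times the tested counts in 14 members and over 1.5 times in 3. The highest mean, 539 TPM, belonged to Gm26917, whose label has a limit given below. Malat1 reached 493 TPM ± 165 (SD, n = 18) and Norad 148 TPM ± 25.4. Gm42418, which lies beside Gm26917, and Gm10076 stood between Norad and Pantr1. Pantr1, next to the transcription factor gene Pou3f3, had 42.4 TPM ± 6.51, and 1700020I14Rik, next to Oip5 and known as Cyrano, 40.3 TPM ± 10.2. Pvt1, the neighbour of Myc, reached 14.2 TPM ± 1.28. Miat stood at 5.72 TPM ± 1.96 and Neat1 at 1.88 TPM ± 0.487.

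The members lay on all 19 autosomes. Their exonic length ran from 384 to 20771 bp (median 3510 bp), 18 had a single exon block, 10 held an annotated microRNA and 4 an annotated snoRNA. An annotated gene overlapped 24 members on the same strand and 42 on the opposite strand, and counts in such overlaps are uncertain.

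Together the members held 0.788 to 1.24% of the fragments counted on genes, and a pair of genes held most of that: Gm26917 had 44.0% of member counts and Malat1 32.5%. The label of Gm26917 (chr17:39843013-39846341, plus strand) has a limit, since it lies beside Gm42418 (chr17:39846958-39848788, plus strand) at an annotated ribosomal RNA sequence. Of the strand-resolved counts at Gm42418, 85.9% fell on the opposite strand, where the annotated ribosomal RNA CT010467.1 lies. How much of these counts is ribosomal RNA was not tested. Gm26917 held 3117 to 6904 CPM (counts scaled to a fixed library size after TMM normalization) and Gm42418 215 to 1064 CPM, with groups that overlapped throughout. Gm42418 also varied most between replicates, with a coefficient of variation of 32.8% averaged over the 4 groups, against a median of 10.3% over members and 3.82% for the steadiest, 4632415L05Rik.

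The comparison of regions asked which members differ between the dorsal and ventral poles of the DG. Of the 99 members, 38 were called at an FDR under 0.05 with a fold change of at least 1.2, 18 with a dorsal and 20 with a ventral excess. Over all 17040 genes tested, 32.7% were called, 15.9% with a dorsal and 16.8% with a ventral excess, against 38.4%, 18.2% and 20.2% of the members. Among the autosomal genes of any type that met the same count limit the background was 28.3%. The 316 other autosomal lincRNAs tested had a share of 38.3%. The higher share of members depended on the fold limit. At an FDR under 0.05 alone, 55.6% of members passed, against 58.4% of all genes tested and 63.5% of autosomal genes under the same count limit. The median size of the regional difference was 0.19 on the log2 scale both for members and for all genes tested. It was 0.16 for autosomal genes under the same count limit and 0.30 for the other autosomal lincRNAs tested. Most calls were small: the median size among the 38 was 0.481 on the log2 scale, and 3 exceeded 2-fold. In 27 of the 38, all 9 pools showed one direction. In 11 of the 38 no dorsal sample overlapped a ventral one. These 11 were the only members without overlap among the 99, a smaller share than the 18.9% of all tested genes. The pool of SH replicate 3, which no test used, showed the same direction for 36 of the 38.

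**Figure D1:**
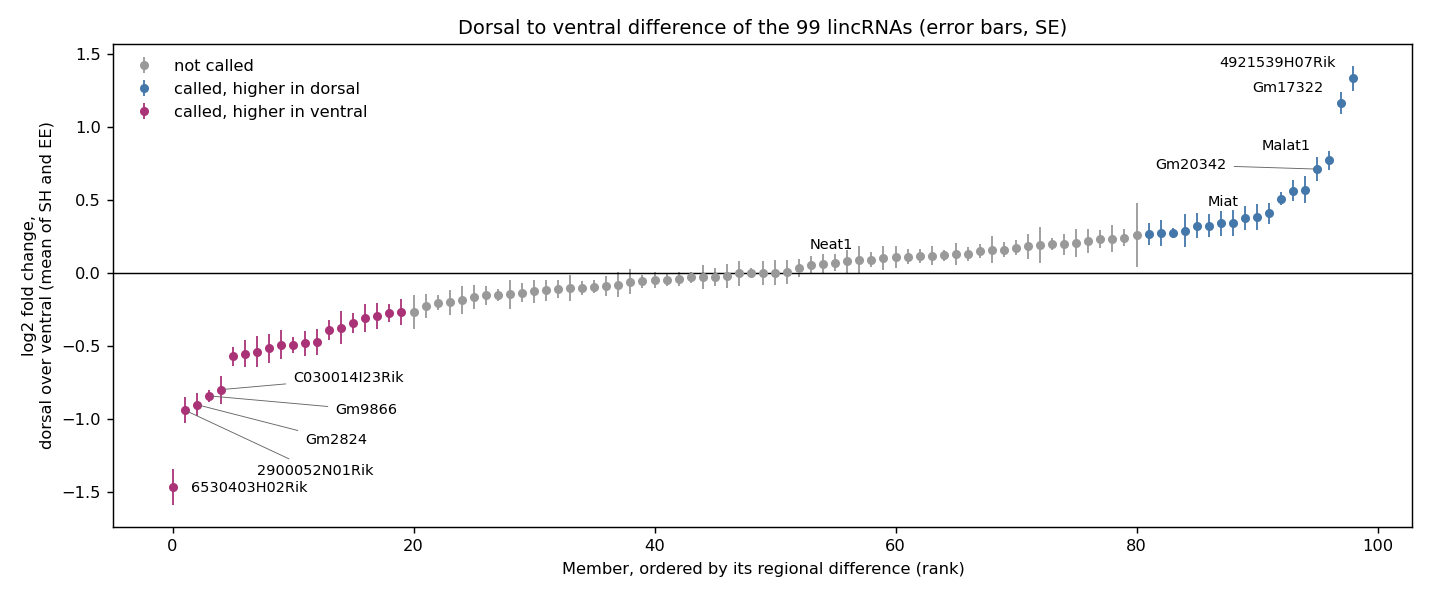
Difference between dorsal and ventral DG of the 99 lincRNAs in rank order (vertical axis, log2 fold change of dorsal over ventral, mean of SH and EE; horizontal axis, rank). Points are estimates over 18 samples with SE bars, blue for the 18 called higher in dorsal DG, purple for the 20 called higher in ventral DG and grey for the rest. Both called sides are of similar number, and 6530403H02Rik and 4921539H07Rik stand at the ends.

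Malat1 was higher in dorsal DG, and it was the most abundant member to be called. Its level ran from 3318 to 4679 CPM (median 3997) in the 9 dorsal samples and from 2099 to 2765 CPM (median 2271) in the 9 ventral samples. The regions did not overlap. Mean levels were 3955 CPM ± 148 (SD, n = 4) in dorsal SH, 4099 CPM ± 538 (n = 5) in dorsal EE, 2394 CPM ± 233 (n = 4) in ventral SH and 2335 CPM ± 263 (n = 5) in ventral EE. The log2 fold change was 0.77 ± 0.064 (SE, FDR = 8.95e-10). In SH replicate 3 the dorsal sample held 3363 CPM and the ventral one 1808 CPM, a difference of the same direction.

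Miat was also higher in dorsal DG, by less. Its dorsal samples held 59.2 to 81.1 CPM (median 69.5) and its ventral samples 41.3 to 68.4 CPM (median 49.7), so that the ranges overlapped, although the dorsal sample was the higher one in 9 of 9 pools. The log2 fold change was 0.38 ± 0.091 (FDR = 0.00113). Over the 18 samples the members whose log2 CPM followed Miat most closely were Mir124a-1hg (Pearson r = 0.935), AI480526 (r = 0.861) and Malat1 (r = 0.85), a description of samples that share regions and pools. AI480526 itself had a regional log2 fold change of 0.23 ± 0.093 (FDR = 0.0362) and was under the fold limit.

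The other nuclear and cytoplasmic lincRNAs with described roles were not called. Neat1 ranged from 11.7 to 17.6 CPM in dorsal and from 12.4 to 15.1 CPM in ventral DG, with a log2 fold change of 0.09 ± 0.051 (FDR = 0.15). Norad had a log2 fold change of -0.10 ± 0.047 (FDR = 0.0595) and Pantr1 one of 0.10 ± 0.081 (FDR = 0.295). Pvt1 stood at -0.13 ± 0.081 (FDR = 0.177). Cyrano passed the FDR but not the fold limit, at 0.19 ± 0.043 (FDR = 5.29e-04). Lncpint, a p53-induced transcript, was at -0.27 ± 0.119 (FDR = 0.0566) and was called with pool as a block (FDR = 0.0123). It was also called by the likelihood ratio test, without the count filter, on unstranded counts, and without EE replicate 4 (-0.30) or SH replicate 2 (-0.34). Gm26917 was not called in the main fit, but without SH replicate 1 it was called higher in dorsal DG (0.31, FDR = 0.0421). Of the 4 snoRNA hosts, Snhg12 had a log2 fold change of -0.16 ± 0.063, Snhg6 one of -0.14 ± 0.064 and Epb41l4aos one of -0.19 ± 0.093. These were not called, whereas the remaining host, 6530403H02Rik, was called with a ventral excess and is described below.

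**Figure D2:**
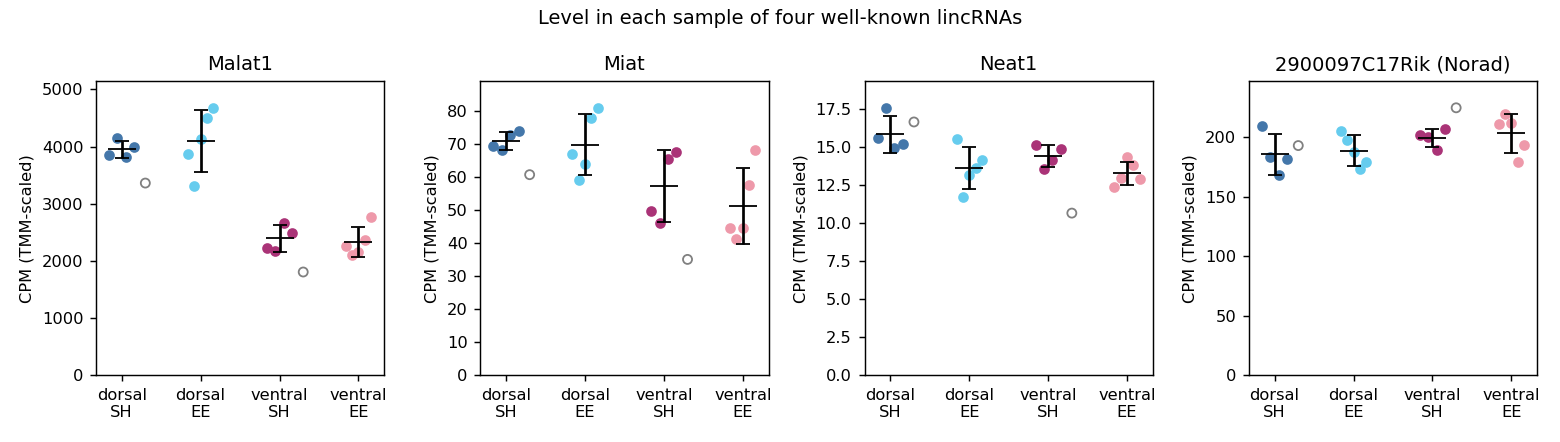
Level of Malat1, Miat, Neat1 and Norad in each sample (vertical axes, TMM-scaled CPM from 0; horizontal axes, the 4 groups). Filled points are the tested samples, bars the mean and SD, and open circles SH replicate 3, which was not tested. Malat1 separates the regions, Miat overlaps, and Neat1 and Norad have overlapping ranges.

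Protein genes known to work in the same compartments were counted in the same test. Of 11 paraspeckle protein genes, 2 were higher in dorsal DG (Sfpq, log2 fold change 0.36, and Taf15, 0.36) and none was lower. Of 15 genes for nuclear speckle and splicing proteins, 4 were higher in dorsal DG (Srrm1, 0.33, Srrm2, 0.37, Sf1, 0.34, and Celf3, a neuronal splicing regulator, 0.36) and none was lower. The median log2 fold changes of these lists were 0.18 and 0.08, where the median over all genes tested was -0.0046. Among the 17040 genes tested, a dorsal excess was called for 15.9% and a ventral excess for 16.8%. Whether either list departs from these shares was not tested.

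The largest dorsal excess belonged to 4921539H07Rik (chr3:58117053-58167616, plus strand), with 6.67 to 10.8 CPM (median 9.53) in dorsal and 2.93 to 4.53 CPM (median 3.88) in ventral samples. Its log2 fold change was 1.33 ± 0.084 (FDR = 8.68e-12), with no overlap between regions. Gm17322 followed with 7.81 to 10.0 CPM in dorsal samples and 2.96 to 4.80 CPM in ventral ones, a log2 fold change of 1.16 ± 0.076 (FDR = 1.43e-11). Gm17322 (chr9:57998041-58007451, plus strand) overlaps Cyp11a1, the enzyme that starts steroid synthesis, on the same strand, and fragments of the overlap cannot be divided between them with certainty. Gm20342 had 4.68 to 7.33 CPM in dorsal and 3.10 to 4.21 CPM in ventral samples (0.71 ± 0.082). Also without overlap were 2810455O05Rik (0.56 ± 0.071) and Dbpht2 (0.51 ± 0.045), whereas 1300002E11Rik (0.40 ± 0.075) had overlapping ranges.

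The largest ventral excess belonged to 6530403H02Rik (chr3:120604109-120886733, minus strand), which holds the snoRNA Gm25013. It ran from 6.78 to 15.0 CPM (median 11.4) in dorsal and from 22.5 to 39.7 CPM (median 27.0) in ventral samples, without overlap. The log2 fold change was -1.47 ± 0.122 (FDR = 8.55e-10), and it was -1.50 on the RSEM estimated counts, which gave this gene 0.121 times its unique counts. 2900052N01Rik had 31.3 to 43.4 CPM in dorsal samples and 56.7 to 92.5 CPM in ventral ones (-0.94 ± 0.09), again without overlap. Gm2824 had 3.02 to 5.72 CPM in dorsal and 6.79 to 9.24 CPM in ventral DG (-0.90 ± 0.08). Gm9866 (chr12:27050950-27160633, minus strand), whose nearest tested coding gene is Sox11, a transcription factor of immature neurons, had 15.5 to 18.4 CPM in dorsal and 27.4 to 34.1 CPM in ventral DG (-0.84 ± 0.043, FDR = 2.21e-13). Ventral excess with overlapping ranges was seen for C030014I23Rik (-0.80 ± 0.096), Gm10605 (-0.57 ± 0.067), A230006K03Rik (-0.56 ± 0.093), C030037D09Rik (-0.54 ± 0.107) and Gm10076 (-0.49 ± 0.1). For C030014I23Rik 70.3% of the strand-resolved counts lay on the opposite strand, and on unstranded counts its log2 fold change was -0.26.

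Markers of other cells moved with the region. All 8 choroid plexus markers were called higher in ventral DG, with a summed level of 636 to 2150 CPM in ventral and 146 to 428 CPM in dorsal samples. None was at 0 in a group mean; in dorsal DG Folr1, Kcnj13, Otx2 and Aqp1 were under 1 CPM. Of 5 granule cell markers, 4 were called higher in dorsal DG (summed 959 to 1190 CPM against 482 to 713 CPM in ventral). Of 6 interneuron markers, 4 were called higher in ventral DG, as were 5 of 6 markers of CA pyramidal and mossy cells, whereas the sixth, Iyd, was higher in dorsal DG (log2 fold change 1.40). Of 6 astrocyte markers, Slc1a3 (-0.27) and Aldoc (-0.48) were called higher in ventral DG. Of 6 habenula and thalamus markers, Gpr151 (2.23) and Lef1 (0.27) were called higher in dorsal DG and Calb2 (-2.42), which is also on the list of CA and mossy cells, higher in ventral DG. None of the 6 oligodendrocyte, 6 microglia or 5 endothelial markers was called. The part of these cells in the regional differences of the members was not tested.

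The microRNA hosts differed among themselves by region. The clearest case was the pair of members that host miR-124, a microRNA of mature neurons. Mir124a-1hg (chr14:64587331-64593961, plus strand) holds Mir124a-1 in an exon, and Mir124-2hg (chr3:17789921-17808970, plus strand) holds Mir124a-2 partly in an exon. Mir124a-1hg ran from 15.6 to 21.0 CPM (median 18.97) in dorsal and from 8.56 to 16.3 CPM (median 12.3) in ventral samples, and the dorsal sample was higher in 9 of 9 pools. Its log2 fold change was 0.57 ± 0.091 (FDR = 1.4e-05). Mir124-2hg went the other way, with 7.10 to 10.1 CPM (median 8.18) in dorsal and 10.9 to 13.0 CPM (median 11.8) in ventral samples and no overlap. Its log2 fold change was -0.49 ± 0.055 (FDR = 7.8e-08). Both directions held in SH replicate 3. Per length the pair stood close, at 2.66 TPM ± 1.07 and 2.31 TPM ± 0.442 over the 18 samples.

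The 3 miR-9 hosts did not share a direction. C130071C03Rik, at 10.6 TPM the highest of them, was higher in dorsal DG (log2 fold change 0.27 ± 0.035, FDR = 8.54e-07), just over the fold limit. It was under the limit on unstranded counts (0.25) and when EE replicate 3 (0.26) or EE replicate 4 (0.26) was left out. Gm3764 (-0.03 ± 0.038, FDR = 0.48) and Mir9-3hg (-0.10 ± 0.047, FDR = 0.0823) were not called. Of the hosts of other microRNAs, none of 2900076A07Rik (-0.01), 4833445I07Rik (-0.12), Gm37233 (0.16), Snhg20 (-0.23) and Gm20754 (0.00) was called.

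**Figure D3:**
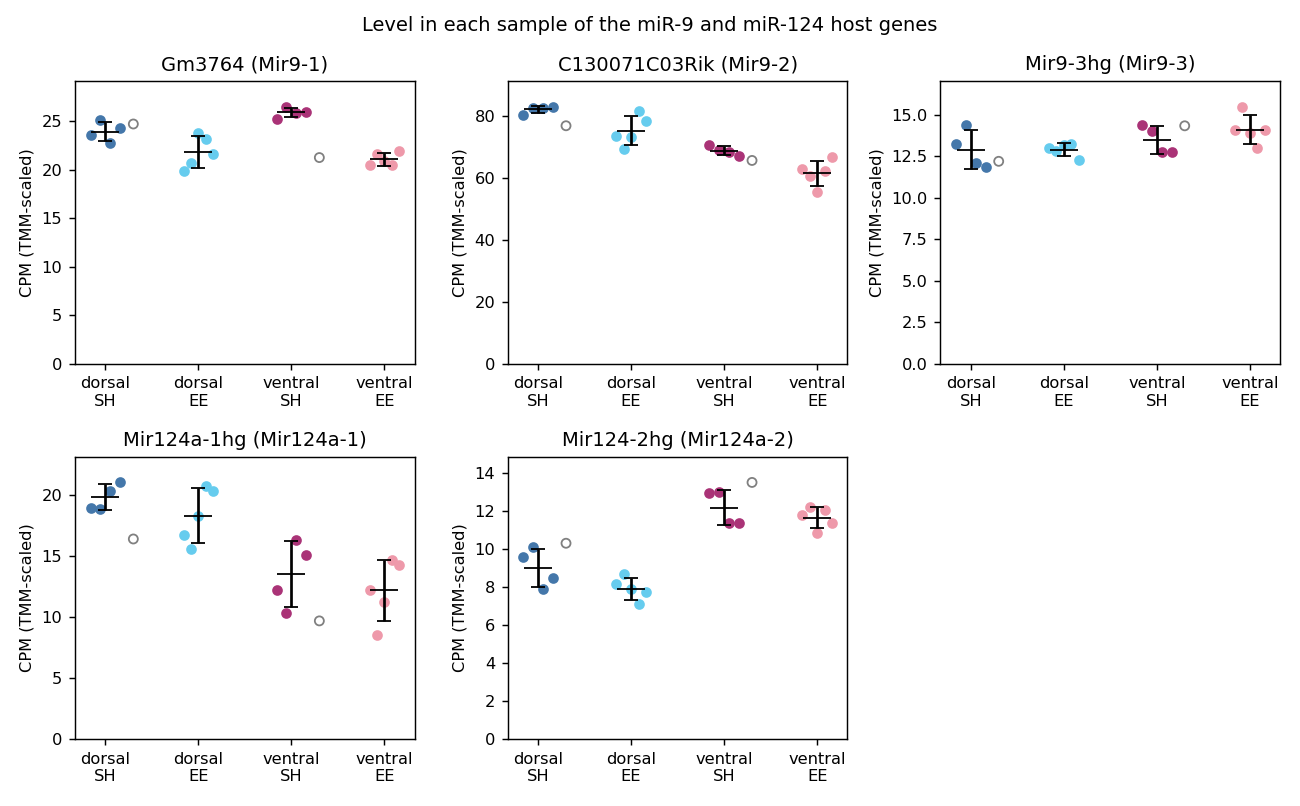
Level of the 3 miR-9 hosts and of both miR-124 hosts among the members in each sample (vertical axes, TMM-scaled CPM from 0, and horizontal axes, the 4 groups). Filled points are tested samples, bars the mean and SD, and open circles SH replicate 3. The miR-124 hosts lean to opposite regions, and the Gm3764 samples of ventral EE lie below those of ventral SH, apart from the open circle of ventral SH replicate 3 at 21.3 CPM.

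The regional difference was also taken within each housing. Within SH 33 members and within EE 34 members were called, 25 of them in both. These were 33.3% and 34.3% of the members, against 28.3% and 29.8% of all genes tested. All 38 members called over both housings had one sign in SH and EE. The test of whether the regional difference depends on housing, which is the interaction of region and housing, called none of the 99 at an FDR under 0.05, with 5 at an unadjusted p under 0.05. Over all genes tested 0.00587% were called, and 3.25% had an unadjusted p under 0.05 against 5.05% of the members. The smallest p values of edgeR's test belonged to 4933404O12Rik (interaction -0.28 ± 0.104), Gm16001 (0.38 ± 0.168) and Gm2824 (-0.36 ± 0.161), each with an FDR of 1. DESeq2 called none of the 99 either.

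The housing comparison asked which members differ between EE and SH within a region. In dorsal DG edgeR's test called 0 of 99 members, where 0.634% of all genes tested were called. At an unadjusted p under 0.05 there were 15 members, 12 of them lower in EE, which is 15.2% of the members against 8.81% of all genes tested. DESeq2 called none. The median log2 fold change was -0.037 over members and -0.0034 over all genes tested.

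Dbpht2 had the smallest p value in dorsal DG. Its CPM was 75.6, 71.0, 74.9 and 78.1 in SH replicates 1, 2, 4 and 5 and 65.3, 57.1, 63.6, 67.0 and 63.1 in EE replicates 1 to 5. Every EE sample lay below every SH sample. The log2 fold change was -0.24 ± 0.062 (FDR = 0.072), and with the replicate number as a block it was -0.22 with an FDR of 0.024, which stays under the fold limit. In ventral DG Dbpht2 had a log2 fold change of -0.20 ± 0.064 (FDR = 0.304), with overlapping samples.

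Gm10605 (-0.35 ± 0.099, FDR = 0.138) and Gm2824 (-0.39 ± 0.122, FDR = 0.206) came next in dorsal DG, both lower in EE. Neat1 had a log2 fold change of -0.21 ± 0.072 (FDR = 0.281) in dorsal and of -0.12 ± 0.073 (FDR = 0.75) in ventral DG. Malat1 stood at 0.05 ± 0.09 in dorsal and -0.04 ± 0.09 in ventral DG, and Miat at -0.02 ± 0.127 and -0.15 ± 0.129. 6530403H02Rik had 7.89, 12.8, 7.77 and 6.78 CPM in dorsal SH and 11.3, 15.0, 12.2, 11.7 and 11.4 CPM in dorsal EE. SH replicate 2 was inside the EE range. Its log2 fold change of 0.49 ± 0.188 had an FDR of 0.39, and with the replicate number as a block it was called (0.55, FDR = 0.00887). Gm42418 had the highest log2 fold change of the 99 in dorsal DG (0.61 ± 0.311, FDR = 0.611), which was -0.05 without EE replicate 3 and 0.02 on unstranded counts. No marker list had a called gene in either housing test. The microglia marker P2ry12 passed the FDR but not the fold limit in dorsal DG, at -0.23 ± 0.054 (FDR = 0.0441).

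In ventral DG 1 of 99 members was called, where 0.241% of all genes tested were called, and 12 members had an unadjusted p under 0.05, 8 of them lower in EE. These were 12.1% of the members, against 7.58% of all genes tested. The called member was Gm3764, the host of Mir9-1. Its CPM was 25.3, 26.5, 25.9 and 26.0 in SH replicates 1, 2, 4 and 5 and 20.5, 21.6, 20.9, 20.5 and 22.0 in EE replicates 1 to 5. The groups did not overlap, and the means were 25.9 CPM ± 0.507 (SD, n = 4) and 21.1 CPM ± 0.679 (n = 5). The log2 fold change was -0.30 ± 0.053 (FDR = 0.00993). In ventral SH replicate 3, outside the test, Gm3764 was at 21.3 CPM, within the EE range, and with all 20 samples in the fit the log2 fold change was -0.24 with an FDR of 0.0777. Leaving out SH replicate 2, 4 or 5 gave FDRs of 0.0559, 0.0567 and 0.0527, with log2 fold changes of -0.29, -0.30 and -0.30.

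In dorsal DG Gm3764 had 23.6, 25.1, 22.8 and 24.3 CPM in SH and 19.8, 20.7, 23.8, 23.2 and 21.6 CPM in EE. The groups overlapped, and the log2 fold change was -0.13 ± 0.054 (FDR = 0.419). C130071C03Rik, the host of Mir9-2, had a log2 fold change of -0.13 ± 0.05 (FDR = 0.396) in dorsal and -0.16 ± 0.05 (FDR = 0.304) in ventral DG. Its ventral samples held 70.7, 69.1, 68.4 and 67.3 CPM in SH and 62.8, 60.5, 55.6, 62.4 and 66.7 CPM in EE, without overlap. Ventral SH replicate 3, at 65.7 CPM, lay inside the EE range here too. Mir9-3hg had log2 fold changes of 0.00 ± 0.067 in dorsal and 0.06 ± 0.066 in ventral DG. For the miR-124 hosts the dorsal values were -0.11 ± 0.124 for Mir124a-1hg and -0.19 ± 0.08 (FDR = 0.468) for Mir124-2hg.

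**Figure D4:**
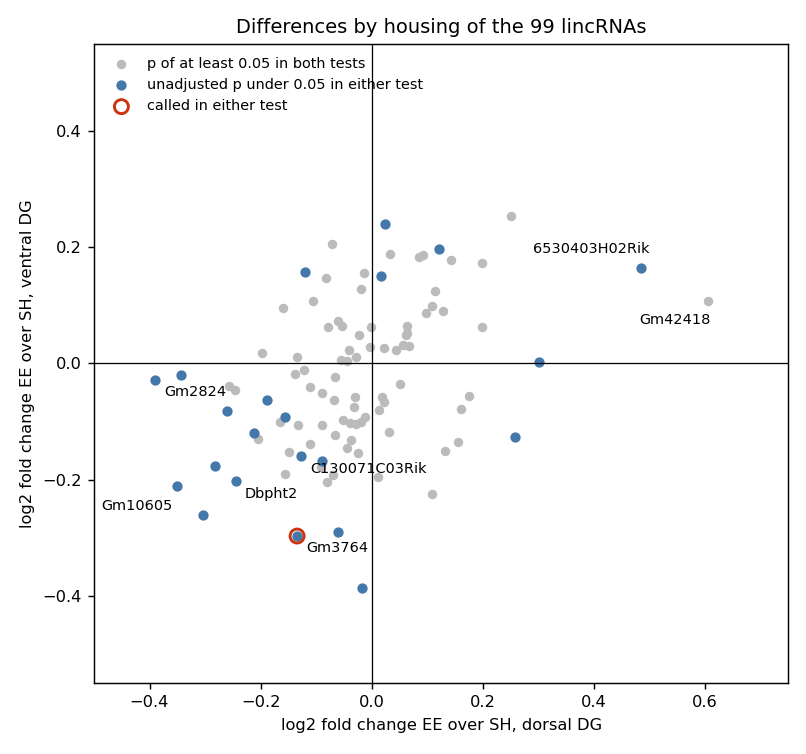
Differences between EE and SH of the 99 lincRNAs in dorsal (horizontal axis) and ventral DG (vertical axis), as log2 fold changes of EE over SH. Blue points had an unadjusted p under 0.05 in either test and the red ring marks Gm3764, the 1 member called. Gm42418 lies far to the right at 0.61, where 1 dorsal EE sample held 1064 CPM, and at -0.05 without that sample's pool.

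Each member was set beside the nearest tested protein-coding gene, which gave 99 pairs with 96 distinct neighbours and a median gap of 3270 bp. In 64 of 99 pairs the member and its neighbour had one sign of the regional difference, or 64.6%, against 52.7% of 11492 pairs of coding genes under the same count limit. In 18 pairs both were called, 14 of them in one direction (77.8%, against 63.1% of the coding pairs). Across the pairs Pearson's r was 0.336 and Spearman's rho 0.338, as a description of genes that share samples and, where they overlap, have uncertain counts. The 25 pairs that start head to head within 5000 bp had an r of 0.555, and the 12 that overlap on opposite strands an r of 0.838. Among these 12 were Gm26794, with 92.6% of its strand-resolved counts on the opposite strand, and Ino80dos, with 89.7%, so part of the counts of such pairs may have one origin, which was not tested. The 9 members that begin downstream of a coding gene on the same strand within 5000 bp had an r of 0.828, and the 42 pairs farther apart an r of 0.0986. The 9 other pairs within 5000 bp had an r of -0.226, and in none of them were both genes called.

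Named pairs show both the close and the distant case. Gm17322 and Cyp11a1 had regional log2 fold changes of 1.16 and 1.30, and 1300002E11Rik and Map3k13, which overlap on the same strand, had 0.40 and 0.58. Gm10605 and Tpbgl, which overlap on opposite strands, had -0.57 and -0.76. 2810455O05Rik, 46 bp past Ccsap on the same strand, had 0.56 where Ccsap had 0.47. C030037D09Rik, which starts head to head with Msi2, a regulator of translation in progenitors, had -0.54 where Msi2 had -0.22. Of the 42 distant pairs, both genes were called in 10, of which 6 went in one direction, such as 2900052N01Rik and Cadm1 (-0.94 and -0.44). Of the others, Gm9866 was higher in ventral DG and Sox11 higher in dorsal DG (-0.84 and 0.53), and Mir124-2hg and Bhlhe22 had -0.49 and 0.63.

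**Figure D5:**
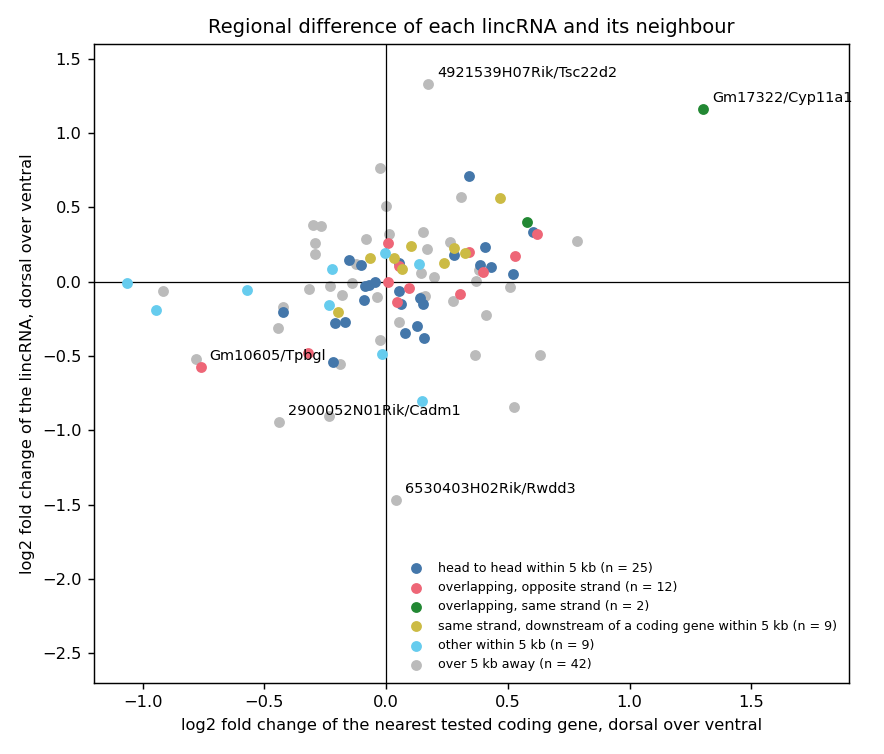
Regional log2 fold change of each lincRNA (vertical axis) against that of its nearest tested coding gene (horizontal axis), coloured by how the pair lies on the chromosome. Overlapping and same-strand pairs lie nearer the diagonal, whereas the 42 grey pairs farther than 5000 bp apart spread around 0.

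The members just inside it were C030014I23Rik, Gm17586 and Gm38353, with a lowest count of 53 each, and those just outside were Gm42864, Lppos and A330102I10Rik, with a lowest count of 50 each. Mean levels were 3.67, 3.45 and 2.74 CPM inside and 3.51, 2.60 and 2.64 CPM outside.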

How the data were processed

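RNA-Seq of 20 DG samples was used, and the methylation samples were not analysed here. Libraries were stranded total RNA. The submitters' processing notes name Trim Galore 0.4.0, STAR 2.5.1b, RSEM 1.2.30 and the build mm10, and STAR aligned the reads and counted genes. The authors deposited raw fragment counts per gene, whole numbers in an unstranded and both stranded forms, and the reverse-stranded counts were used. The authors also deposited RSEM expected counts, rounded here for an alternative fit, and TPM, used for levels between genes. Gene types came from Gencode vM21, matched by gene ID without version (45968 of 46480 genes).

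Genes with over 10 counts in 2 or more of the 18 samples were tested with edgeR 4.0.16 in R 4.3.3, using TMM and the quasi-likelihood test on 4 group means, with Benjamini-Hochberg adjustment over 17040 genes. SE is the log2 fold change over the root of F. CPM values are TMM-scaled, those of SH replicate 3 from a scaling of all 20 samples. The CPM of Xist are the exception, scaled only to the total of counts on genes. The alternatives were DESeq2 1.42.0, RLE size factors, the likelihood ratio test, a region test with both housings free, other filters, strands and counts, left-out pools and a block, of pool for region and interaction and of replicate number for housing. The fit was tested on simulated data. Counts limit the precision of low members.

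Same-numbered SH and EE samples deviated together in 8 of 8 pairs (correlation 0.156 to 0.46), so the numbers were taken to pair them. Within pools, dorsal and ventral deviations correlated at -0.241 to 0.496. Members named with values were those with described roles, the highest by TPM, the largest regional and housing differences, and hosts of small RNAs. The largest regional differences were taken only from called members with one direction in all 9 pools. Members, lists and tests were chosen with earlier results of these data known. A gene of the paraspeckle list and a neighbouring gene are not reported here.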

Additional observations from a re-analysis of the deposited data

Results flagged for a closer look

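In 9 of 172 groups of 4 or 5 samples of named members (5.23%) 1 sample lay far from the rest, and chance gives about 1 in 20 (5%). The largest was Gm42418 in dorsal EE, with 1064 CPM in replicate 3 against 223 to 312 CPM in the other 4. In the same sample, Gm17322 held 7.97 CPM against 8.83 to 9.13 CPM and Gm9866 held 15.5 CPM against 17.7 to 18.2 CPM. 6530403H02Rik in dorsal EE replicate 2 held 15.0 CPM against 11.3 to 12.2 CPM. In dorsal SH replicate 1, 2810455O05Rik held 8.89 CPM against 7.45 to 7.69 CPM and Gm20342 held 5.06 CPM against 7.003 to 7.33 CPM. Gm10076 in dorsal SH replicate 2 held 10.4 CPM against 7.74 to 7.96 CPM. In ventral SH, Gm38353 held 2.82 CPM in replicate 2 against 2.23 to 2.30 CPM and Snhg20 held 4.86 CPM in replicate 4 against 3.46 to 3.69 CPM.

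SH replicate 3, outside all tests, held 34.4 CPM of Xist in its dorsal and 11.9 CPM in its ventral sample, whereas no other sample exceeded 0.652 CPM.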

How the results depend on the processing

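The count of members called by region stayed within 1.5 times of 38 under all alternatives run. It ran from 30 with the TPM filter, which tested 86 members, to 55 without the fold limit. With a pool left out it was 33 to 39. The 55 were 55.6% of the members, against 58.4% of all genes tested. In dorsal DG the 0 called by housing became 1 with all 20 samples (Gm10605), with the replicate block (6530403H02Rik) and without EE replicate 4 (Dbpht2), so that leaving out a pool gave 0 to 1. In ventral DG the 1 called (Gm3764) became 0 with all 20 samples and without SH replicate 2, 4 or 5, so that leaving out a pool gave 0 to 1. The interaction called 0 under each. The replicate block called 38 by region, 37 of them shared with the fit without it, and left the ventral housing count at 1 and the interaction at 0. The cause of these moves was not tested. The rule for members gave 159 genes at more than 20 counts and 58 at more than 100 counts. The 129 named log2 fold changes were recomputed under the alternatives, which gave 2476 values. Of these 2476, 19 lost the call, 13 gained it and 5 moved by more than 1 SD between samples. No called value changed sign, and uncalled values changed sign 104 times. Leaving the ribosomal RNA locus out of library sizes, an alternative added after seeing the data, left the counts at 38, 0, 1 and 0 of 97 members. Depth limits members near 50 counts. The p values of the main fit measure the spread between samples within groups, and they leave out the pairing by pool and by replicate number.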
